A study of Mus musculus with 26 samples.

Results

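The type I interferon response genes are 39 mouse genes chosen by symbol, by a rule that uses no measured value, to cover the pathway from the sensing of foreign nucleic acid to the antiviral proteins it induces. They comprise 6 sensors and adaptors, 6 receptor chains and Stat/Irf regulators, and 27 effectors. All 39 were listed in each of the 2 deposited expression tables, which share 17846 genes (19404 genes in the table of the Brg1 deletion and 19719 in that of the Brg1 knockdown).

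Cytosolic sensors such as RIG-I bind viral RNA and signal through adaptors to IRF transcription factors, which switch on the type I interferon genes. Secreted interferon binds a receptor of the chains Ifnar1 and Ifnar2, and a complex that holds Stat2 and Irf9 then enters the nucleus and binds the interferon-stimulated response element (ISRE) of its target genes. Many sensors and regulators of the pathway are themselves targets, so that cells keep a low tonic level of the whole group without infection.

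The series asked how Brg1, encoded by Smarca4 and the ATPase of the BAF chromatin remodelling complexes, acts in early B cells. All RNA came from C57/Bl6 marrow cells selected for B220 and cultured for 7 days with IL7 and SCF. In the deletion experiment, 2 libraries of Brg1F/F x ER-Cre pro-B cells (Brg1-deleted) were set against 2 libraries of Brg1+/+ x ER-Cre pro-B cells (control). Every culture of that experiment carried the tamoxifen-inducible ER-Cre and received 0.3 µM tamoxifen for the last 60 hours, the controls included. In the knockdown experiment, 3 libraries of Rag1-/- cells, which cannot rearrange antigen receptor genes, with a Brg1 shRNA were set against 3 libraries of Rag1-/- cells with a control shRNA. Both knockdown groups were spin-infected with retrovirus on days 3 and 4 and enriched for infected cells with beads against the hCD25 marker, and neither received tamoxifen. No label says which animals or cultures the libraries came from, so p-values measure only the spread between these libraries, which may be technical. Another 16 samples of the series, of chromatin assays, were not analysed here.

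The interferon-stimulated response element (ISRE) could be matched in the promoters of only some members. The sequences are shown because members with and without a match are set side by side below. The windows are from RefSeq on GRCm38.p6, the assembly of the files (mm10), and 29 of the 39 genes were in the promoter table. Each sequence runs 5′ to 3′ along the gene's own strand, with 25 bases before the element. After the element up to 25 bases are printed, but none beyond the start of the gene. The window searched was 250 bases before and 50 after the start, so a short or missing end does not mark its edge. Capitals mark the ISRE core, which is GAAA, any 2 bases, GAAA on either strand, so that it reads TTTC, any 2 bases, TTTC when it lies on the opposite strand.
Bst2, chr8:71537562-71537627, minus strand: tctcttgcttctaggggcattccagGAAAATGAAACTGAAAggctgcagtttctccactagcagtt
Ifitm3, chr7:141010716-141010767, minus strand: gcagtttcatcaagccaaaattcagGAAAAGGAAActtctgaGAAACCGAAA
Stat2, chr10:128270251-128270310, plus strand: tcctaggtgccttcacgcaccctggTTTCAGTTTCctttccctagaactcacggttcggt
Oas1a, chr5:120907526-120907570, minus strand: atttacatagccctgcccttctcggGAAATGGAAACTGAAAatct
Eif2ak2, chr17:78882545-78882579, minus strand: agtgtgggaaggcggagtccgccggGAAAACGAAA
Ddx58, chr4:40239814-40239848, minus strand: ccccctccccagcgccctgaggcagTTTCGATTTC
Isg15, chr4:156200850-156200921, minus strand: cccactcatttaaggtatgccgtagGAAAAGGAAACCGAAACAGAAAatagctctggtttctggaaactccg
Ifit3, chr19:34583348-34583441, plus strand: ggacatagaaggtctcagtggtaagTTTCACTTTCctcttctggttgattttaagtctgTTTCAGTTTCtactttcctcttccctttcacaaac
Ifit1, chr19:34640760-34640838, plus strand: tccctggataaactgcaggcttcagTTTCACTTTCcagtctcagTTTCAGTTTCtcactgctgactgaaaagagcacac

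The first 7 are the members with a core that had the highest control levels per kilobase of exon, and Ifit3 and Ifit1 are added for their spread between libraries. The core was present in 12 of the 29 promoters (41.4%), against 1079 of 27025 promoters of the table (3.99%). Cores followed by CT, as in the consensus ISRE, stood in 6 of 29 (20.7%) against 0.303% of all. The Isg15 window held 3 overlapping cores, Ifit1 and Ifit3 held 2 each, and in Ifitm3, Eif2ak2 and Ddx58 the core nearest the start lay just downstream of it. The GAS core TTCNNNGAA, a site type of Stat dimers, was in 11 of 29 promoters (37.9%) and in 9.55% of all. A match describes letters in this window and no factor's binding was measured here.

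The deposited tables hold 1 mean per group in normalized reads (reads divided by a library size factor, the DESeq scale) with the authors' own fold changes and p-values. Because each mean is a sum of whole reads, the value of each library could be worked back from it where a single combination of whole reads gave the mean. This recovered the 4 pro-B libraries for 38 of the 39 genes, all but Trim25, and the 6 Rag1-null libraries for 7 low-level members. The recovered totals were 11578676 and 8790593 reads in the Brg1-deleted libraries and 10771382 and 10209711 reads in the control libraries. Since the means carry no replicate numbers, libraries are called deeper and shallower within their group. Libraries of the same group were distinct: their chi-square divided by the number of genes came to 26.7 for the Brg1-deleted and 19.9 for the control libraries, where sampling noise alone gives about 1. Smarca4 itself was lower in both experiments in the authors' deposited tables, at 6067 normalized reads in Brg1-deleted cells against 17898 in control cells (2.95-fold, adjusted p = 0.0008), and at 6743 with the Brg1 shRNA against 13340 with the control shRNA (1.98-fold, adjusted p = 0.0472).

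In Brg1-deleted pro-B cells, 1 of the 39 genes passed a threshold of 0.05 on the authors' adjusted p, the RNA sensor gene Ddx58, which rose 2.31-fold. Over the authors' deposited table, 1.47% of all 19404 genes passed it in either direction. At an unadjusted p under 0.05, 5 members were higher and 0 lower: Ddx58, the receptor chain gene Ifnar1, the regulators Stat2 and Irf9, and the RNA editing enzyme gene Adar, against 4.23% of all genes higher. The log2 fold change was above 0 for 26 of 39 members, against 49.9% of all genes, and the median over the members was 0.33, against -0.00 over all genes listed. That median rested on single libraries: over the 38 members resolved by library it was -0.0054 without the deeper Brg1-deleted, 0.69 without the shallower Brg1-deleted, 0.06 without the deeper control and 1.07 without the shallower control library. By role, the medians were 0.56 for sensors and adaptors, 0.86 for receptors and regulators and 0.19 for effectors.

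Among the sensors and adaptors, Ddx58 (chr4:40203773-40239828, minus strand, mm10) encodes RIG-I, which recognises viral RNA ends. Ddx58 had 887 and 677 normalized reads in the deeper and shallower Brg1-deleted libraries, against 311 and 366 in the deeper and shallower control libraries. Both Brg1-deleted libraries lay above both controls, and the authors' deposited table gave a log2 fold change of 1.21 at adjusted p = 0.045 (group means 782 against 339). Limma on the recovered reads gave 1.20 with a standard error of 0.22 and an adjusted p of 0.13, which does not pass. That fit passed 0 of all 16800 genes, so not passing it is not particular to Ddx58. Ifih1, the RNA sensor MDA5, had 125 and 80.2 normalized reads in the Brg1-deleted libraries, against 43.9 and 86.1 in the controls. Zbp1, a sensor of Z-form nucleic acid, had 132 and 91.9 in the Brg1-deleted libraries, against 38.0 and 92.1 in the controls. For both genes, and for Dhx58, the shallower control library reached into the range of the Brg1-deleted libraries. The authors' deposited table put the adaptors below 0, at -0.45 for Mavs, the mitochondrial adaptor of RNA sensing (adjusted p = 1), and -0.28 for Tmem173, which encodes the DNA-sensing adaptor STING (adjusted p = 1). Tmem173, the highest sensor per length with 151 normalized reads per kb of exon in Brg1-deleted and 184 in control cells, had 346 and 350 normalized reads in the Brg1-deleted libraries, against 394 and 451 in the controls, with no overlap.

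The receptor chains and regulators had the highest median. Of these, Ifnar2, Irf1, Irf7 and Irf9 carry the authors' mark as confounded, a term left undefined. Ifnar1 (chr16:91485238-91507441, plus strand) had 2814 and 2106 normalized reads in the Brg1-deleted libraries, against 1262 and 1386 in the control libraries. Its partner chain Ifnar2, from the same stretch of chromosome 16, had 703 and 664 normalized reads in the Brg1-deleted libraries, against 686 and 689 in the controls. The 2 chains of the receptor thus stood apart, with log2 fold changes of 0.89 for Ifnar1 (p = 0.0058, adjusted p = 0.1947) and -0.01 for Ifnar2 (adjusted p = 1) in the authors' deposited table, where neither passed. The difference between the chains was not tested.

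Stat2, the interferon-specific Stat protein, had 1064 and 1135 normalized reads in the Brg1-deleted libraries, against 634 and 611 in the controls. Irf9, the DNA-binding partner of Stat2, had 1229 and 841 in the Brg1-deleted libraries, against 393 and 567 in the controls. The authors' deposited table gave Stat2 a log2 fold change of 0.82 (p = 0.018, adjusted p = 0.3777) and Irf9 one of 1.11 (p = 0.0056, adjusted p = 0.1897). Irf7, the IRF that amplifies interferon transcription, had 289 and 127 normalized reads in the Brg1-deleted libraries, against 19.5 and 108 in the controls. Its log2 fold change of 1.70 was the highest of the regulators (p = 0.0861, adjusted p = 0.8356) in the authors' deposited table, and it was 0.94 without the deeper control library, the lowest of the 4. Irf1 had 777 and 1172 normalized reads in the Brg1-deleted libraries, against 797 and 710 in the controls, and these ranges overlapped.

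The effectors gave no call, and their extremes were wide. Adar, which edits double-stranded RNA, had 1948 and 1661 normalized reads in the Brg1-deleted libraries, against 1074 and 1164 in the controls. The authors' deposited table gave it a log2 fold change of 0.69 (p = 0.0355, adjusted p = 0.5468), and the groups did not overlap. Ifit3, a partner of the RNA-binding Ifit1, had the highest log2 fold change of the group at 2.07 (adjusted p = 1) in the authors' deposited table, from 137 and 26.7 normalized reads in the Brg1-deleted libraries, against 4.88 and 34.0 in the controls. Ifi44 had the lowest at -1.63 (adjusted p = 1), from 57.9 and 30.2 normalized reads in the Brg1-deleted libraries, against 39.0 and 234 in the controls. Leaving out each library in turn moved the log2 fold change of Ifit3 between 0.46 and 4.07 and that of Ifi44 between -2.41 and 0.18, so that Ifi44 turned above 0 without the shallower control library. Eif2ak2, which encodes the RNA-activated kinase PKR, was the 1 effector lower without overlap, at 408 and 378 normalized reads in the Brg1-deleted libraries, against 507 and 642 in the controls. Trim25, a ubiquitin ligase that acts on RIG-I and the effector with the highest level per length, was listed with means of 515 normalized reads per kb of exon in Brg1-deleted and 453 in control cells. Oas1a and Ifitm3 have close paralogues in the tables (Oas1b, Oas1c and Oas1g, and Ifitm2), and how reads shared between copies were divided is not given in the sources used here.

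**Figure D1:**
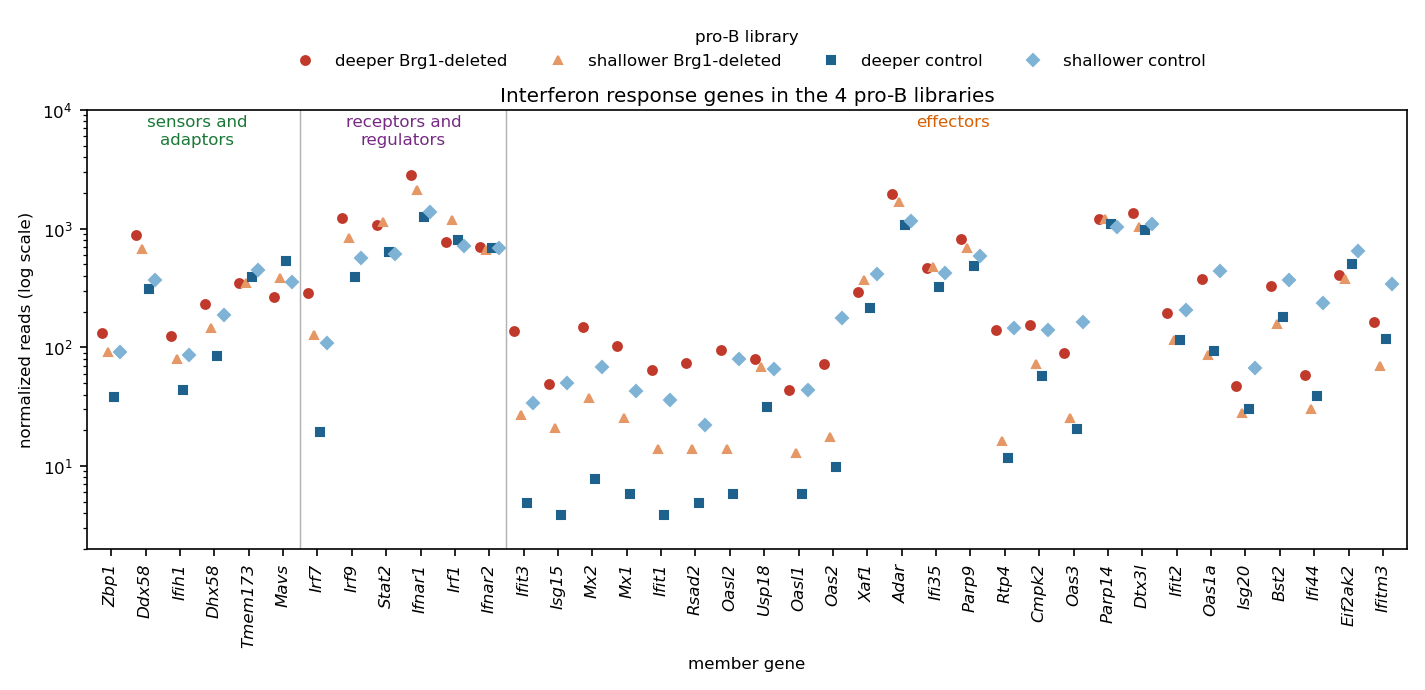
Normalized reads (vertical log axis) of the 38 genes resolved in the 4 pro-B libraries, by role; circles and triangles are the deeper and shallower Brg1-deleted libraries, squares and diamonds the deeper and shallower control libraries. Ddx58, Stat2, Irf9, Ifnar1 and Adar keep the Brg1-deleted libraries above the controls, while for effectors such as Isg15, Oas2 and Rtp4 the deeper control and the shallower Brg1-deleted library lie below the other libraries.

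Over the 38 resolved members, 10 were higher in both Brg1-deleted libraries than in both controls (Ddx58, Ifnar1, Irf7, Irf9, Stat2, Adar, Ifi35, Parp14, Parp9 and Usp18), 2 were lower (Tmem173 and Eif2ak2) and 26 overlapped. Of 18378 resolved genes, 23.0% were higher and 22.3% lower by the same rule, so that the count of 10 is near the background and the count of 2 is below it. Of the 6 receptors and regulators, 4 were higher without overlap, and of the 26 effectors 5. Parp9 and Dtx3l, which encode partners in a ubiquitin ligase complex, overlap on opposite strands of chromosome 16, and whether counting used the strand is not given in the sources used here.

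The effectors varied together between libraries of the same genotype, with median ratios well beyond their median fold change between genotypes. Oas2, an oligoadenylate synthetase that activates RNase L, had 72.6 and 17.4 normalized reads in the Brg1-deleted libraries, against 9.75 and 176 in the controls. Rtp4 had 139 and 16.3 in the Brg1-deleted libraries, against 11.7 and 146 in the controls. Isg15, the ubiquitin-like modifier, had 49.2 and 20.9 in the Brg1-deleted libraries, against 3.90 and 50.0 in the controls. In each of these genes the deeper Brg1-deleted and the shallower control library lay above the remaining libraries. Ifit1, which binds viral RNA caps, followed with 63.9 and 14.0 in the Brg1-deleted libraries, against 3.90 and 36.0 in the controls. Mx1 followed with 103 and 25.6 in the Brg1-deleted libraries, against 5.85 and 43.0 in the controls. Here the low levels rest on few reads, since 3 reads, the limit that a count of 0 allows, correspond to 2.93 normalized reads in the deeper control library.

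Between the deeper and the shallower Brg1-deleted library, 16 of 38 members were at least 2-fold higher in the deeper one, against 8.53% of 11847 genes resolved at a mean of 10 or more (ratios with 1 read added). Between the control libraries, 21 of 38 were at least 2-fold higher in the shallower one, against 7.36% of those genes. All 16 met both rules, against 4.43% of genes. The spread differed between roles. Median ratios were 2.21 (Brg1-deleted) and 3.35 (control) for 26 effectors, and 1.37 and 1.51 for 6 sensors and adaptors. They were 1.19 and 1.05 for 6 receptors and regulators, beside 0.969 and 0.972 over all genes. Role was not separated from level. The effectors Adar and Parp14, at control means of 1119 and 1064, had ratios of 1.08 and 0.938 between the controls (no read added). Oasl2 and Rtp4, at control means of 43.0 and 78.9, had 13.7 and 12.5. Of the regulators, Irf7 alone was past 2-fold in both groups. With an ISRE core in the promoter the median ratios, here with no read added, were 2.35 (Brg1-deleted) and 3.70 (control) over 12 members, and without one 1.40 and 1.61 over 16 members, a description of members that also differ in role. Isg15, with 3 overlapping cores, had a ratio of 12.8 between the controls, whereas Stat2, whose core ends 213 bases before the start, had 0.965. Oasl2, without a core in the window, had 13.7.

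**Figure D2:**
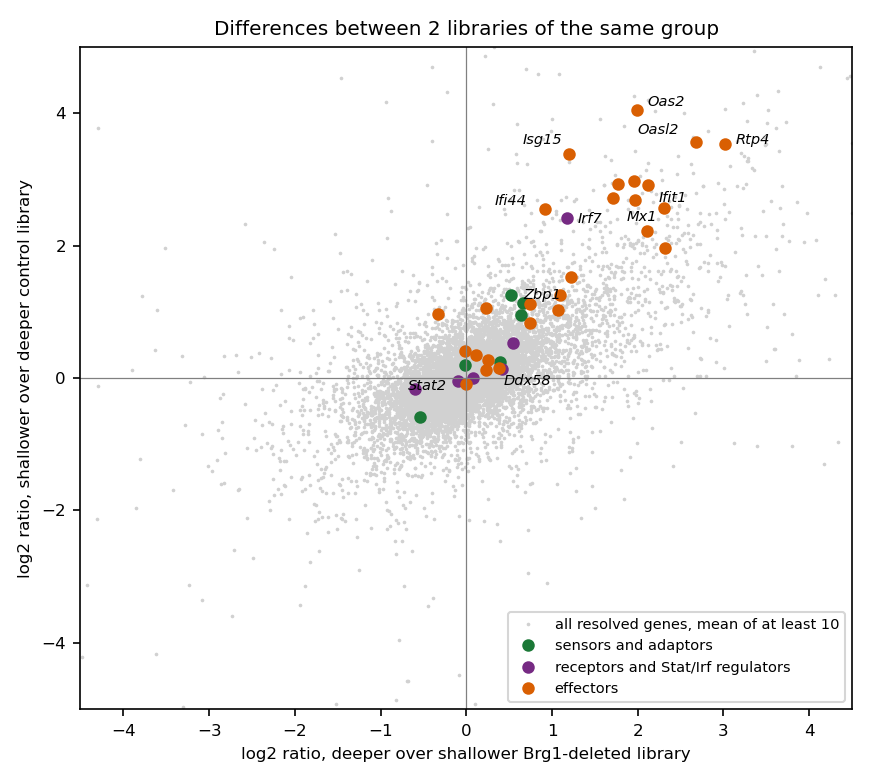
Log2 ratio between the 2 libraries of a group (1 read added): deeper over shallower Brg1-deleted on the horizontal axis, shallower over deeper control on the vertical axis, with 11847 resolved genes of mean 10 or more in grey, of which 90 fall outside the axes. Most effectors (orange) lie in the upper right, while receptors and regulators (purple) other than Irf7, and Ddx58, lie near 0.

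Markers of other cells differed between the same libraries, although the selection was for B220. The 12 listed of 13 macrophage and monocyte markers summed to 5182 and 1942 normalized reads in the deeper and shallower Brg1-deleted libraries, against 2594 and 7619 in the deeper and shallower controls. Lyz2 made the largest part of each of these sums, at 3335 and 1527 in the Brg1-deleted libraries, against 2086 and 5288 in the controls. C1qb, a complement gene of macrophages, had 117 and 9.30 in the Brg1-deleted libraries, against 11.7 and 210 in the controls. All 15 pro-B cell markers were listed, with summed means of 102868 in Brg1-deleted and 72015 in control cells. The 4 of them that were resolved (Dntt, Il7r, Rag2 and Vpreb2) summed to 1361 and 4813 in the Brg1-deleted libraries, against 4815 and 3272 in the controls. Of the plasmacytoid dendritic cell markers, 11 of 13 were resolved and summed to 2102 and 1145 in the Brg1-deleted libraries, against 330 and 926 in the controls. Tlr9 made the largest part of each plasmacytoid sum, at 1483 and 965 against 140 and 585, so these sums, like the macrophage sums, lean on a single gene. The 9 resolved of 11 neutrophil markers summed to 129 and 715 in the Brg1-deleted libraries, against 1551 and 1028 in the controls, and 11 T and NK cell markers to 176 and 154, against 557 and 510. The largest parts of the T and NK sums in the deeper and shallower controls were Thy1, at 307 and 224, and Lck, at 199 and 191. Among the markers at 0, Ltf was so in the deeper Brg1-deleted and the shallower control library, and Ncr1 and Cd300c in the shallower Brg1-deleted and the deeper control library. The macrophage sum was thus higher in the pair of libraries with the higher effector levels; its part in the interferon result was not tested. In bulk RNA, fewer cells of a type and less RNA per cell cannot be told apart.

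The genotypes could also be compared between like libraries. Matching the libraries across genotype by the similarity of 11699 genes outside all lists (r = 0.62 across genes between the 2 ratios) put the deeper Brg1-deleted with the shallower control library and the shallower Brg1-deleted with the deeper control library. This matching was chosen after the data were seen and rests on no label. Within it, 23 of 38 members were above 0 in both pairs, against 33.4% of 18378 resolved genes, and 8 below 0 in both, against 32.1%. Limma without matching called 0 genes at adjusted p under 0.05, or 0% of 16800, with 2817 genes (16.8%) and 6 members at an unadjusted p under 0.05. Limma with this matching called 17.3% of the 16800 genes, and 11 members higher and 2 lower: Ddx58, Ifnar1, Irf7, Irf9, Stat2, Adar, Ifit3, Mx1, Mx2, Parp9 and Rsad2 higher, and Eif2ak2 and Ifitm3 lower. With the other matching it called 0 genes, with 5 members and 8.54% of all genes at an unadjusted p under 0.05, so these calls depend on a pairing that the labels do not give.

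In the Rag1-null cultures the Brg1 shRNA gave no call among the 39 genes, and 1 unadjusted p under 0.05, that of Ifnar1. Ifnar1 had a mean of 1429 normalized reads with the Brg1 shRNA, against 937 with the control shRNA (log2 fold change 0.61, p = 0.0467, adjusted p = 1) in the authors' deposited table. Over that table, 0.218% of 19719 genes passed the adjusted threshold in either direction, and 1.67% had an unadjusted p under 0.05 and were higher. The log2 fold change was above 0 for 24 of 39 members, against 49.7% of all genes. By role, the medians were 0.28 for sensors and adaptors, 0.41 for receptors and regulators, of which 6 of 6 were above 0, and 0.00 for effectors, beside -0.00 over all genes listed.

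In the authors' deposited table the sensors ran from Ifih1, with means of 52.1 with the Brg1 shRNA against 32.3 with the control shRNA (log2 fold change 0.69, p = 0.1128, adjusted p = 1), to Tmem173 at -0.32 (237.9 against 298.0, adjusted p = 1). The receptors and regulators ran from Ifnar1 to Ifnar2 at 0.07 (576 against 548, adjusted p = 1). Irf9 was at 0.55 (440.0 against 301, p = 0.081, adjusted p = 1) and Stat2 at 0.48 (611 against 438, adjusted p = 1) in the authors' deposited table. Ddx58, the call of the deletion experiment, was at 0.30, with means of 273 with the Brg1 shRNA against 222 with the control shRNA (adjusted p = 1). The effectors ran from Mx1 at 1.08 to Ifi44 at -1.53, both at adjusted p = 1 in the authors' deposited table.

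The effectors at these extremes had few reads. Mx1 had 7.01, 7.87 and 7.26 normalized reads in the deepest, middle and shallowest Brg1 shRNA libraries, against 4.22, 2.83 and 3.41 in the control shRNA libraries. It was the 1 gene of 7 resolved members whose groups did not overlap, where 4.15% of 7923 resolved genes were higher without overlap. Ifit1 had 2.34, 4.37 and 2.07 in the Brg1 shRNA libraries, against 0, 1.88 and 5.12 in the control shRNA libraries. Rsad2, the antiviral enzyme viperin, had 5.45, 6.12 and 0 in the Brg1 shRNA libraries, against 0, 4.71 and 6.83 in the control shRNA libraries. A library at 0 allows up to 3 reads, which is 3.11 normalized reads in the shallowest Brg1 shRNA and 2.53 in the deepest control shRNA library. Oasl1 had 19.5, 8.75 and 8.29 in the Brg1 shRNA libraries, against 9.29, 3.77 and 44.4 in the control shRNA libraries, where the shallowest control library carried most of the mean. Ifit3, which had the highest fold change on deletion, had 2.34, 4.37 and 4.15 in the Brg1 shRNA libraries, against 2.53, 4.71 and 3.41 in the control shRNA libraries.

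The 2 experiments share no library, and the members mostly lay on the same side of 0 in both. The log2 fold change was above 0 in both for 22 of 39 members, where 36.4% of all 17846 shared genes were, and below 0 in both for 11, where 35.6% of genes were. The remaining 6 had opposite signs (4 above 0 on deletion alone and 2 on knockdown alone), and Ifi44 was the lowest member in both experiments. Across the 34 members with means of at least 10 in both tables, Pearson's r of the log2 fold changes was 0.81, beside 0.67 over 11953 genes with such means. These values are across genes, which are not independent replicates. Irf7, Irf9, Ifnar1 and Stat2 were the 4 highest of the receptors and regulators in both and Ifnar2 the lowest, whereas Ifit3 and Rsad2, at 2.07 and 1.70 on deletion, were at 0.03 and 0.00 on knockdown in the authors' deposited tables.

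**Figure D3:**
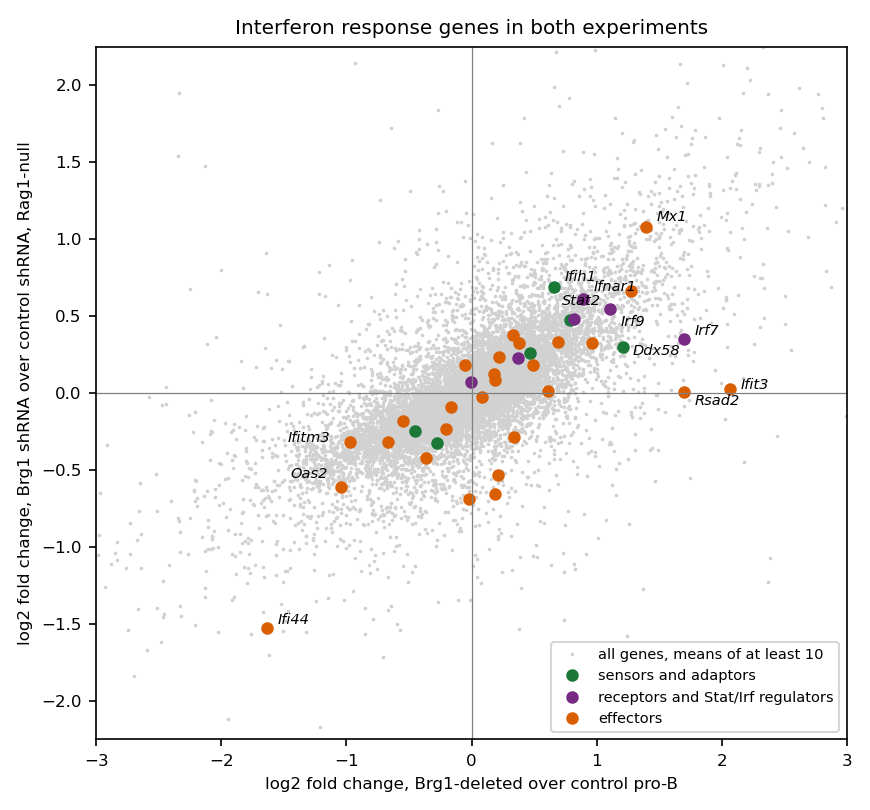
Log2 fold change of each gene on Brg1 deletion in pro-B cells (horizontal axis) and on Brg1 knockdown in Rag1-null cells (vertical axis), from the authors' deposited tables; grey dots are 11953 genes with means of at least 10 in both, of which 68 fall outside the axes. Receptors and regulators (purple) lie above 0 on both axes, other than Ifnar2 near the origin, and effectors (orange) run from Ifi44 at the lower left to Mx1 at the upper right.

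The interferon genes themselves were mostly not listed, and no type I interferon gene had a value. A gene that is not listed may have had no reads or may have been left out, which cannot be told apart here. Of 21 ligand genes (type I, Ifng and the lambda interferons), Ifng was the 1 listed for the deletion, with 4.32 and 0 normalized reads in the Brg1-deleted libraries, against 0 and 2.00 in the controls, and 0 of 21 were listed for the knockdown. Of 20 further genes of the induction pathway, 0 were called on deletion. At an unadjusted p under 0.05, 3 were higher, against 4.23% of all genes. They include Tlr9, the endosomal DNA receptor and one of the plasmacytoid markers above, with 1483 and 965 normalized reads in the Brg1-deleted libraries, against 140.4 and 585 in the controls (log2 fold change 1.75, p = 0.0054, adjusted p = 0.1863) in the authors' deposited table. Unc93b1, which escorts the endosomal receptors, was at 0.84 (p = 0.0104, adjusted p = 0.2751) and Samhd1, a restriction factor that breaks down nucleotides, at 1.46 (p = 0.0244, adjusted p = 0.4472) in the authors' deposited table. On knockdown 2 were higher and 1 lower at an unadjusted p under 0.05, against 329 higher and 212 lower of all 19719 genes. The induction genes were Tlr9 at 1.62 (p = 0.0082), Irf5 at 0.59 (p = 0.0367) and Aim2, a sensor of the inflammasome, at -0.61 (p = 0.0377), each at adjusted p = 1 in the authors' deposited table.

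Of 16 further genes of receptor signalling, 0 were called in either experiment. Among the lowest p-values on deletion were those of Jak2 at 0.71 (p = 0.0409, adjusted p = 0.5881) and Tyk2, the kinase bound to Ifnar1, at 0.70 (p = 0.0504, adjusted p = 0.6458) in the authors' deposited table. On knockdown Socs3, a feedback inhibitor of Jak-Stat signalling, had the lowest p, at 1.35 (means 325 with the Brg1 shRNA against 127 with the control shRNA, p = 0.0002, adjusted p = 0.102) in the authors' deposited table.

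Of 55 other interferon-stimulated genes, 1 was called on deletion: the guanylate-binding protein gene Gbp7 fell by 1.68 on the log2 scale, with means of 1045 in Brg1-deleted against 3337 in control cells (adjusted p = 0.0004) in the authors' deposited table. At an unadjusted p under 0.05, 8 were higher and 2 lower, against 820 higher and 1027 lower of all 19404 genes, of which 1.47% were called. After Gbp7 the lowest p-values were those of Ifi204 at 1.18 (p = 0.0011, adjusted p = 0.0754) and Trim34a at 1.07 (p = 0.0037, adjusted p = 0.1495) in the authors' deposited table. Ifi204 had 525 and 380.3 normalized reads in the Brg1-deleted libraries, against 179 and 219 in the controls. On knockdown 54 of the 55 were listed, 0 were called, and Gbp7 was at -0.37 (adjusted p = 1); Slfn8 had the lowest p, at 1.28 (p = 0.0003, adjusted p = 0.1288) in the authors' deposited table. Ifi27l2a followed there at -0.72 (p = 0.0147) and Sp100, a nuclear body protein gene, at 0.74 (p = 0.0152), each at adjusted p = 1 in the authors' deposited table.

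The Rag1-null cultures, which alone received retrovirus, had lower levels of most of this group than the pro-B cultures: 37 of 39 genes were lower in the Rag1-null control shRNA than in the pro-B control group, against 58.1% of 17846 genes. As a share of the table's summed means, in parts of 1000000 (ppm), Ifit1 stood at 0.34 with the Brg1 shRNA and 0.26 with the control shRNA in Rag1-null cells, against 3.85 in Brg1-deleted and 1.93 in control pro-B cells. Mx1 stood at 0.86 and 0.39 in these Rag1-null groups, against 6.35 in Brg1-deleted and 2.36 in control pro-B cells. Between the controls, 14 of 39 members were at least 2-fold lower in Rag1-null than in pro-B cells, against 12.7% of 17846 genes, and 12 of these were effectors. The median log2 ratio of Rag1-null control shRNA over pro-B control was -0.45 over the 39 genes and -0.08 over all genes. It was -0.69 for the effectors, -0.38 for the sensors and adaptors and -0.34 for the receptors and regulators. The tables were normalized apart and no test was made. Rag1 genotype, tamoxifen with ER-Cre, retrovirus and bead enrichment cannot be told apart in this ratio. The macrophage markers also differed, with summed means of 406 with the Brg1 shRNA and 344 with the control shRNA in Rag1-null cells, against 3562 in Brg1-deleted and 5106 in control pro-B cells. Lyz2 made the largest part of these sums, at 222 and 182 in the Rag1-null groups, against 2431 and 3687 in the pro-B groups. The part of these markers was not tested.

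The gap differed between members. Irf7 stood at 2.89 ppm with the Brg1 shRNA and 2.20 with the control shRNA in Rag1-null cells, against 20.5 in Brg1-deleted and 6.16 in control pro-B cells. Ifi44 stood at 0.92 and 2.56 in these Rag1-null groups, against 4.36 in Brg1-deleted and 13.2 in control pro-B cells. Ifnar1 stood at 166 and 106 ppm in the Rag1-null groups, against 243 in Brg1-deleted and 128 in control pro-B cells. The highest effector per length, Trim25, stood at 249 and 228 ppm in the Rag1-null groups, against 293 in Brg1-deleted and 252 in control pro-B cells.

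**Figure D4:**
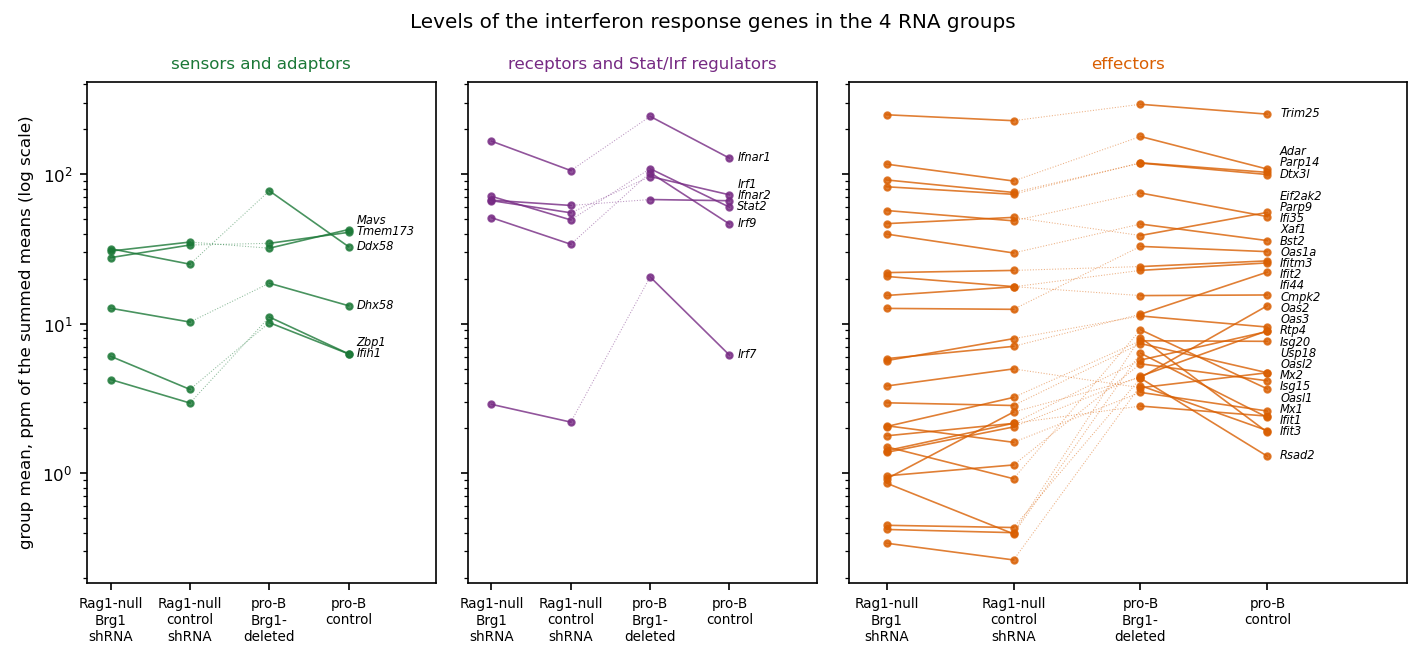
Group means in ppm of the summed means (vertical log axis) of the 39 genes in the 4 RNA groups, by role; solid lines join the Brg1-depleted group to its control within an experiment and dotted lines join tables that were normalized apart. Ifit1, Mx1 and Ifi44 lie lower in both Rag1-null groups than in either pro-B group.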

How the data were processed

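RNA-seq means of 10 libraries in 4 groups were used. Per the submitters' processing notes, the authors used CASAVA, RSEM and DESeq on mm10; versions are not given in the sources used here. Messenger RNA was purified and strand was marked with dUTP, per the labels' protocols. Each deposited value is a normalized signal: the authors' group mean of reads divided by a size factor. The deposited log2 fold changes, p-values and Benjamini-Hochberg adjusted p-values are the authors', per the file headers, and they are the main test (adjusted p under 0.05). The authors mark 10 members as confounded, a term left undefined. The marked members are Dhx58, Ifnar2, Irf1, Irf7, Irf9, Dtx3l, Eif2ak2, Ifi35, Oasl1 and Parp9.

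Each mean was matched to sums of whole reads per library (tolerance 6e-05). In the pro-B groups all 19404 genes had a solution, and 18860 (Brg1-deleted) and 18484 (control) had a single one. In the Rag1-null groups only means up to 40 were tried, so the members resolved there are low-level ones. Genes with a single solution and a mean of at least 1 were fitted with limma 3.58.1 (R 4.3.3, trend) on log2 of reads plus 0.5 over the size factor; both steps were tested on simulated data first. Levels across tables are in parts of 1000000 of summed means. Intervals are not given for recovered reads; a limit of 3 reads covers counting error only.

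The rule for the members uses symbols and no measured value, but the members and gene lists were chosen with earlier results of these data known. Named are Smarca4, members called or with an unadjusted p under 0.05, the extremes of each role, the highest level per kb, single members that carry a difference between libraries, and the called and lowest-p genes of each pathway list. A gene that this rule selects is not reported here.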

Additional observations from a re-analysis of the deposited data

How the results depend on the processing

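No paired analysis was possible by the labels' replicate numbers because the deposited means carry none; both ways of pairing the recovered pro-B libraries were fitted instead. In the deletion experiment the count of 1 member called stayed at 1 with an adjusted p threshold of 0.1, adjustment over the listed genes, a mean of at least 10, genes without the confounded mark, or a 1.5-fold minimum. It was 5 at an unadjusted p under 0.05, all of them higher, beside 4.23% of all genes that were higher at that threshold. Limma without matching called 0 members and 0% of 16800 genes. With libraries matched by similarity limma called 13 members, beside 17.3% of those genes, and with the other matching 0 members and 0 genes. The counts of 0 are thus not particular to the members. The matchings were chosen after seeing the data. Ddx58, the gene called, had a limma log2 fold change of 1.00 to 1.39 without each library in turn. These fits were also chosen after seeing the data, and a lone library in them is assumed to vary like the other group. In the knockdown experiment the count was 0 in each of these settings of the deposited values except an unadjusted p under 0.05, where it was 1. The median log2 fold change on deletion ran from -0.0054 to 1.07 with each library left out. Of 38 members, 22 kept their direction throughout, among them 6 of 6 sensors and adaptors, 5 of 6 receptors and regulators and 11 of 26 effectors. The share over all genes was not computed, so these counts have no background beside them. Requiring CT after the ISRE core lowered the share of member promoters to 20.7%, and the 250 bases before the start alone gave 27.6% (8 of 29, with 0 of 3 sensors and adaptors). The knockdown median did not leave 0.09 to 0.10. The cause of these changes was not tested. Depth limits the effectors with few reads.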
